A study of Drosophila melanogaster with 6 samples.

Results

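The sarcomere genes described here encode the contraction machinery of muscle, and they make up 32 of the 17612 genes in a count table from third-instar Drosophila melanogaster leg discs. They were chosen by name as thick filament, thin filament, troponin and Z-disc genes, and each was matched to its FlyBase identifier through the gene annotation. Textbook knowledge split the list into 27 muscle-specific genes and 5 broadly expressed genes, which have known roles outside muscle. Discs of the genotype labelled Double, which the series describes as carrying a deletion of PREs, were compared with wild-type (WT) discs. A PRE, or Polycomb response element, is a DNA element that recruits Polycomb repressor proteins. Each group had 3 poly-A RNA libraries with 20 leg discs per library, from flies kept at 25 °C on standard medium. The labels give neither the deleted elements and their locus, nor the strain or the sex of the larvae. Nor do they say whether the replicates were separate crosses, so the p-values measure the spread between these libraries, which may be partly technical.

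A sarcomere is the repeating unit of a muscle fibre, in which thick myosin filaments pull on thin actin filaments that are anchored at Z-discs. Troponin and tropomyosin lie along the thin filament and let myosin bind when calcium is released. The leg disc itself is an epithelial sac without contracting muscle. Adepithelial cells, the myoblasts beneath its epithelium, build the adult leg muscles during metamorphosis, when most sarcomere genes are switched on.

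The labelled tissue was first read from the libraries, while no gene could check the genotype, as the deleted locus is not given. The 8 leg disc markers summed to 1578 to 1655 CPM (counts scaled to library size) in Double and 1648 to 1775 CPM in WT. Among them dac, a leg patterning gene, stood at 409 to 417 CPM in Double and 581 to 613 CPM in WT (edgeR adjusted p = 0.003869). Of the 8 markers, 5 had a log2 fold change of Double over WT above 0 and 3 below, with a median of 0.05. Dll and Antp read higher in Double, with log2 fold changes of 0.24 and 0.29 and unadjusted p under 0.05 (edgeR). After adjustment neither passed (edgeR adjusted p = 0.2922 and 0.3843). The 6 markers of adepithelial myoblasts, among them twi, htl and Mef2, summed to 259.0 to 273.8 CPM in Double and 267.3 to 271.7 CPM in WT, and none was at 0. None of the 6 passed in edgeR or DESeq2 or had an unadjusted p under 0.05. WT replicate 1 stood apart from the other libraries, with 8 fat body markers that summed to 198.5 CPM there and to 3310 to 13720 CPM elsewhere. Total counts were 10025174 to 11772621 in the Double libraries and 8818943 to 13605668 in the WT libraries. At these depths 1 count was worth 0.0861 to 0.0994 CPM in Double and 0.0737 to 0.113 CPM in WT.

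In CPM, the muscle-specific sarcomere genes other than sls were expressed at low levels in leg discs of both groups. Most of those measured read lower in Double. The long gene sls, with 58996 exon bases, stood above 94.0% of tested genes in CPM, which is not scaled to length. Per kb of exon, sls averaged 5.75 CPM over the 6 libraries, below the muscle actin gene Act57B at 10.25. Mp20, a calponin-like muscle protein gene, fell in Double to 22.1% of its WT level, and up, the troponin T gene, fell to 32.4%. They were the only 2 of the 24 tested members past an adjusted p of 0.05 in edgeR, and no member was called higher. Over all 8802 tested genes 0.943% were called lower and 0.545% higher. DESeq2, which called 1.99% of genes lower and 1.34% higher, called 4 members lower and none higher, while limma-voom, which called 0.738% lower, called none of either kind. The 5 broadly expressed members stood above every tested muscle-specific member but sls, and none of them passed any of these tests. Zasp52 alone among all members had an unadjusted p under 0.05 with a higher level in Double, against 5.99% of all tested genes. In bulk discs, fewer cells of a type and less RNA per cell cannot be told apart.

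**Figure D1:**
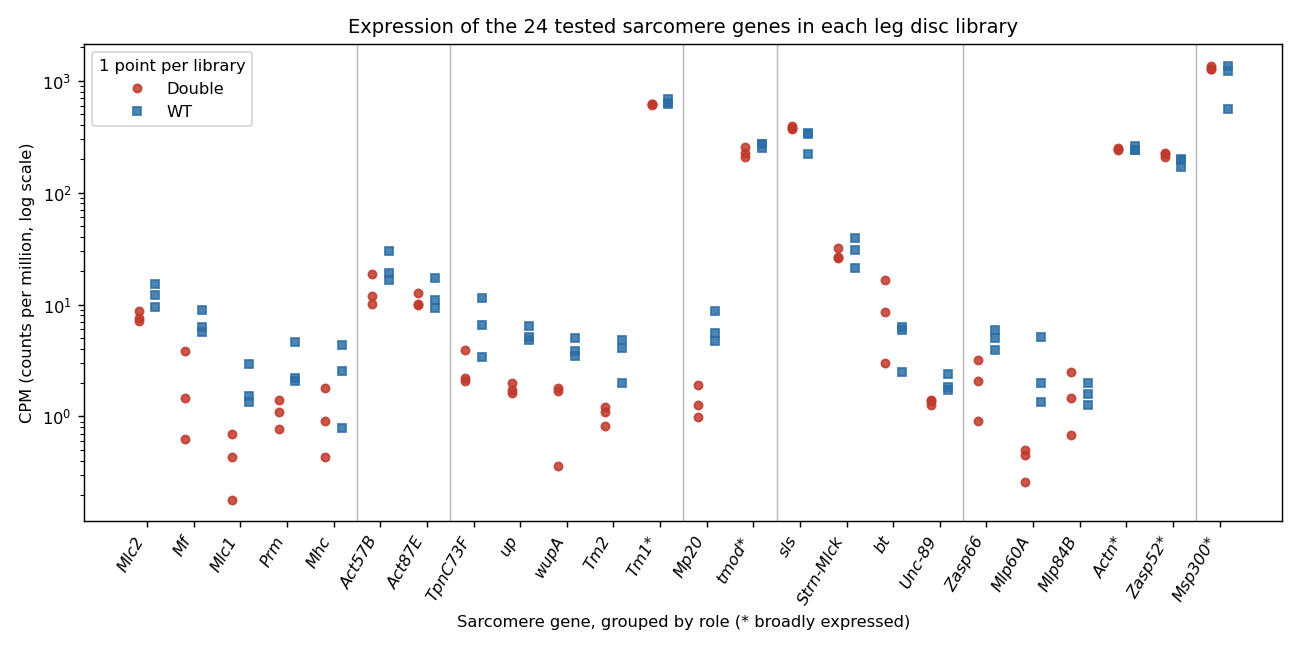
CPM of the 24 tested sarcomere genes (log axis), 1 point per library, with Double as circles left of WT as squares, and genes grouped by role. Broadly expressed genes, marked with an asterisk, lie above 170 CPM, while 18 of the 19 tested muscle-specific genes lie below the median gene (34.2 CPM), sls being the exception.

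Only part of the list could be measured. Of the 32 members 24 passed the count filter, 19 of the muscle-specific and all 5 of the broadly expressed genes. The filter asks for about 0.907 CPM in 3 libraries, which a gene can reach through 1 group alone. Among the 19, 8 reached it in every WT library but not in every Double library, and none the other way round, against 255 and 322 of all tested genes. A further member, Mhc, reached it in 1 Double and 2 WT libraries. A filter on the mean over all 6 libraries, which treats both groups alike, kept the same 24 members at a minimum of 1 CPM. Such a mean can also be carried by 1 group. Mlc1 averaged 0.436 CPM in Double and 1.95 CPM in WT, and Mlp60A 0.403 CPM in Double and 2.81 CPM in WT. Neither reached 0.907 CPM in any Double library. Keeping the same members therefore cannot show that their selection is free of the group difference. The lowest of the 24 averaged 1.19 CPM and the highest of the 8 others 0.336 CPM.

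The 8 members that were not tested include the isoforms best known from adult flight muscle. Zasp67, a Z-disc PDZ protein gene, and fln, which encodes flightin of the flight muscle thick filament, had 0 counts in all 6 libraries, which allows a level of up to 0.0453 CPM (3 counts over all libraries, counting error only). For fln this bound is uncertain, because the antisense gene asRNA:CR45161 overlaps 801 of its 1300 exon bases and the strand setting of the counting is unknown. Act88F, the flight muscle actin gene, had 0, 1 and 1 counts in Double replicates 1 to 3 and 0, 0 and 1 in WT replicates 1 to 3. The troponin C genes TpnC4 and TpnC41C had 0, 4 and 1 and then 5, 0 and 1 counts in Double, against 0, 2 and 0 and then 0 counts throughout in WT. Act79B, an actin gene of adult leg and other tubular muscles, had 3, 1 and 3 counts in Double and 6, 5 and 3 in WT. The troponin C gene TpnC25D had 3, 1 and 3 counts in Double and 11, 0 and 4 in WT. TpnC47D, also a troponin C gene, had 2, 3 and 1 counts in Double, each below the 4, 4 and 8 counts in WT. With 11 counts or fewer in every library, differences between the groups were not detectable at this depth for these genes.

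The mean level of each of the 5 tested thick filament genes was lower in Double, and none passed the test in edgeR, though 4 had an unadjusted p under 0.05. Mlc2, the regulatory myosin light chain gene and the most abundant of them, stood at 8.70, 7.51 and 7.06 CPM in Double replicates 1, 2 and 3 and at 15.2, 12.2 and 9.50 CPM in WT replicates 1, 2 and 3. Every Double library lay below every WT library, and the log2 fold change of Mlc2 was -0.67 (SE 0.20; edgeR adjusted p = 0.2185), short of the threshold. Mf, which encodes myofilin, read 1.46, 0.633 and 3.88 CPM in Double and 6.34, 8.94 and 5.70 CPM in WT. Its groups did not overlap either, yet the Double libraries differed widely among themselves, and the log2 fold change of -1.81 (SE 0.58) did not pass (edgeR adjusted p = 0.2547). Mlc1, the alkali myosin light chain gene, had 5, 2 and 7 counts in Double and 40, 12 and 17 counts in WT. It passed the count filter through the WT libraries alone. Prm, which encodes paramyosin, had 9, 12 and 14 counts in Double and 30, 41 and 23 in WT. Both were without overlap, with log2 fold changes of -2.16 (SE 0.63) for Mlc1 and -1.44 (SE 0.49) for Prm, and neither passed the test (edgeR adjusted p = 0.1933 and 0.2745). Mhc, the single muscle myosin heavy chain gene, had 5, 10 and 18 counts in Double and 59, 7 and 28 in WT. Its groups overlapped, since WT replicate 2 lay below Double replicates 2 and 3 in CPM (log2 fold change -1.32, SE 0.71).

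Groups without overlap, with Double below WT, were thus seen for 4 of the 5 tested thick filament genes, and for 11 of the 24 tested members in all, against 9.11% of all tested genes. All 11 are muscle-specific. An unadjusted p under 0.05 with a lower level in Double was reached by 12 of the 24, again 11 of them muscle-specific, against 6.27% of all tested genes. These counts describe members that in part passed the filter through WT alone, and their set was chosen with earlier results of these data known.

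The 2 muscle actin genes with enough counts overlapped between the groups, and neither passed the test. Act57B, a larval body wall muscle actin gene, stood at 18.6, 10.04 and 11.8 CPM in Double and 29.8, 19.1 and 16.7 CPM in WT. Only Double replicate 1 overlapped the WT range, and its log2 fold change stood at -0.70 (SE 0.31; edgeR adjusted p = 0.4272). Act87E, another muscle actin gene, read 12.7, 10.04 and 9.84 CPM in Double and 17.1, 9.28 and 11.0 CPM in WT, a log2 fold change of -0.21 (SE 0.24) with overlapping groups. Without WT replicate 1 the log2 fold change of Act87E was 0.09, the other direction. The coding sequences of the fly actins are nearly alike, and Act5C, a cytoplasmic actin gene, stood at 6306 ± 127 CPM in Double and 7099 ± 435 CPM in WT (SD, n = 3 each). No source used here says how reads shared between copies were counted, so the levels of the muscle actins are uncertain, as are those of the troponin C genes.

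Among the troponin genes, up was the one called. up (FBgn0004169) encodes troponin T, the subunit that binds tropomyosin, and lies on the minus strand of X at 13593474 to 13602578 (dm6). It had 19, 19 and 20 counts in Double and 88, 43 and 57 in WT, or 1.64, 1.72 and 1.99 CPM in Double and 6.49, 4.86 and 5.16 CPM in WT. All 3 Double libraries of up lay below every WT library. The mean was 1.78 ± 0.184 CPM in Double and 5.50 ± 0.865 CPM in WT (SD, n = 3 each), and the log2 fold change came to -1.63 (SE 0.30; edgeR adjusted p = 0.04372). The call of up was lost without any 1 of the 6 libraries, with adjusted p between 0.09155 and 0.1787, while the log2 fold change stayed between -1.72 and -1.49.

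wupA encodes troponin I, the inhibitory subunit, and stood at 1.81, 0.362 and 1.69 CPM in Double and 3.83, 4.98 and 3.44 CPM in WT. Double replicate 2, with 4 counts, was the lowest, and the groups did not overlap (log2 fold change -1.66, SE 0.55; edgeR adjusted p = 0.2653). TpnC73F, a gene for the calcium-binding subunit troponin C in larval muscle, read 3.96, 2.08 and 2.19 CPM in Double and 3.39, 11.5 and 6.52 CPM in WT. Here WT replicate 1 fell below Double replicate 1, so that the groups overlapped (log2 fold change -1.37, SE 0.48; edgeR adjusted p = 0.3031).

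The tropomyosin genes Tm1 and Tm2 lie close together on 3R. Tm2, which encodes muscle tropomyosin, stood at 1.21, 0.814 and 1.09 CPM in Double and 4.79, 4.07 and 1.99 CPM in WT. Its groups did not overlap, and the log2 fold change of -1.79 (SE 0.46) missed the threshold (edgeR adjusted p = 0.1322). DESeq2 gave Tm2 an adjusted p of 0.04398. Tm1, which also makes cytoplasmic tropomyosins used in non-muscle cells, stood at 624, 617 and 601 CPM in Double and 623, 635 and 682 CPM in WT. The Tm1 groups overlapped, with a log2 fold change of -0.07 (SE 0.07). Whether the muscle isoforms of Tm1 shared the pattern of Tm2 cannot be read from counts per gene.

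The other thin filament genes were Mp20 and tmod. Mp20 (FBgn0002789), a calponin family gene of muscle, lies on the plus strand of 2R at 13246670 to 13248880 (dm6). It had 22, 14 and 10 counts in Double and 64, 78 and 61 in WT, or 1.89, 1.27 and 0.994 CPM in Double and 4.72, 8.82 and 5.52 CPM in WT. The highest Double library of Mp20 stood well below the lowest WT library. The mean was 1.38 ± 0.462 CPM in Double and 6.35 ± 2.18 CPM in WT (SD, n = 3 each), and the log2 fold change came to -2.18 (SE 0.40; edgeR adjusted p = 0.03837). The call of Mp20 held without WT replicate 1 (adjusted p = 0.02617) and was lost without each of the other 5 libraries, with adjusted p up to 0.1826 and log2 fold changes between -2.48 and -1.87.

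tmod encodes tropomodulin, which caps the free ends of actin filaments in many cell types. It stood at 254, 209 and 228 CPM in Double and 271, 251 and 272 CPM in WT. Double replicate 1 lay within the WT range, with a log2 fold change of -0.20 (SE 0.08; edgeR adjusted p = 0.385).

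**Figure D2:**
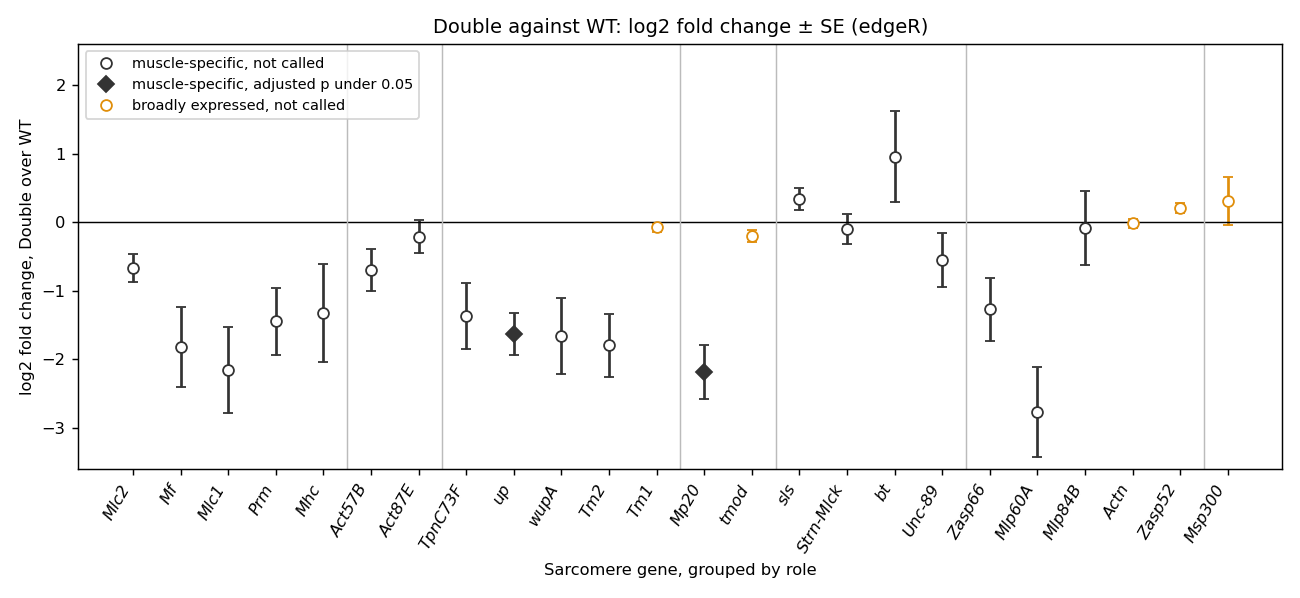
Log2 fold change of Double over WT with its SE (edgeR, 3 libraries per group) for the 24 tested sarcomere genes, grouped by role, with filled diamonds for the 2 called genes. The muscle-specific genes of the thick filament, troponin and tropomyosin lie between -0.67 and -2.16, and the broadly expressed genes between -0.20 and 0.31.

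Among the 4 genes of giant elastic and kinase proteins, 2 had a log2 fold change above 0 and 2 below, and none passed the test or had an unadjusted p under 0.05. sls encodes the titin-like Sallimus, which links the Z-disc to the thick filament. It was listed as muscle-specific and stood at 367, 391 and 378 CPM in Double and 221, 342 and 336 CPM in WT. In CPM this lay above 94.0% of tested genes, but that rank is not scaled to length, and sls has 58996 exon bases. Per kb of exon, sls averaged 6.42 CPM in Double and 5.08 in WT, below Act57B at 7.82 and 12.7. All Double libraries of sls lay above all WT libraries (log2 fold change 0.34, SE 0.16; edgeR adjusted p = 0.4633), as was true of 10.3% of all tested genes. Without WT replicate 1 the log2 fold change was 0.16. An antisense RNA gene, asRNA:CR42860, overlaps 1089 bases of sls exons on the other strand. The libraries kept the strand, but no source used here says whether the counting did.

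Strn-Mlck, which encodes stretchin and a myosin light chain kinase, read 32.3, 26.1 and 26.4 CPM in Double and 21.1, 30.8 and 39.3 CPM in WT. The WT range enclosed all 3 Double values. bt encodes projectin, a titin-like kinase, and stood at 16.7, 2.99 and 8.55 CPM in Double and 2.51, 5.88 and 6.24 CPM in WT. Double replicate 2 stood inside the WT range and the other Double libraries above it (log2 fold change 0.96, SE 0.66; edgeR adjusted p = 0.6168). Unc-89, the obscurin gene, which the annotation names Obsc, had 16, 14 and 14 counts in Double, below the 25, 21 and 19 counts in WT, with a log2 fold change of -0.55 (SE 0.40).

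The longest genes among the members read lowest in WT replicate 1. Msp300, sls, Strn-Mlck and bt each have over 20 kb of exon, all isoforms joined, and each had its lowest CPM of the 6 libraries there. Msp300, whose product anchors nuclei to the cytoskeleton and is used well beyond muscle, stood at 1263, 1276 and 1356 CPM in Double and 559, 1362 and 1230 CPM in WT. Its log2 fold change was 0.31 (SE 0.35) with all libraries and 0.00 without WT replicate 1. Among all 24 tested genes with over 20 kb of exon, the median log2 level of WT replicate 1 was 0.47 below the mean of the 6 libraries, and 18 had their lowest level there. Among the 3972 tested genes with under 2 kb of exon, its median was 0.11 above that mean, and 11.9% had their lowest level there. Of the 11 members whose Double libraries all lay below the WT libraries, 10 have exon lengths from 948 bases for Mp20 to 5356 bases for Prm, and Unc-89 has 13261 bases. The part of this length trend in their differences was not tested. Without WT replicate 1 the median log2 fold change of the tested muscle-specific members was -1.42, and with it -1.32.

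**Figure D3:**
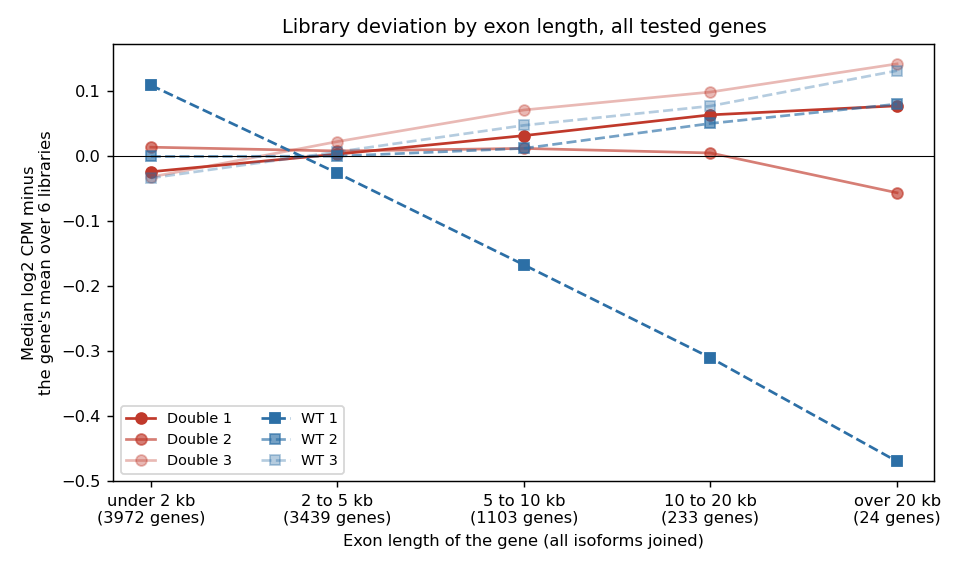
Median difference of log2 CPM from the gene's own mean over 6 libraries, by exon length, for all tested genes with a known length (1 line per library; solid lines for Double, dashed lines for WT). WT replicate 1 runs from 0.11 for genes under 2 kb down to -0.47 for the 24 genes over 20 kb.

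Of the 3 tested muscle-specific genes for Z-disc and LIM domain proteins none passed the test in edgeR. Groups without overlap, with Double below WT, were seen for 2 of the 3, against 9.11% of all tested genes. Both of these, Zasp66 and Mlp60A, reached the filter level in every WT library but not in every Double library. Zasp66, a PDZ domain gene of the Z-disc, stood at 2.07, 0.905 and 3.18 CPM in Double and 3.91, 5.88 and 5.07 CPM in WT, without overlap (log2 fold change -1.27, SE 0.46; edgeR adjusted p = 0.3112). Mlp60A, a muscle LIM protein gene, had 3, 5 and 5 counts in Double and 27, 45 and 15 in WT. It passed the count filter through the WT libraries alone. The log2 fold change of Mlp60A, -2.77 (SE 0.66), was the lowest of all tested members, and it passed in DESeq2 (adjusted p = 0.01577) but not in edgeR (adjusted p = 0.1018). Its relative Mlp84B had 8, 16 and 25 counts in Double and 27, 14 and 14 in WT, with overlapping groups and a log2 fold change of -0.08 (SE 0.54).

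Actn, which encodes the actin crosslinker alpha-actinin of Z-discs and of epithelial cells, stood at 245, 240 and 250 CPM in Double and 239, 262 and 242 CPM in WT, with overlapping groups (log2 fold change -0.02). Its exons share 1022 bases with the genes CG4313 and east on the opposite strand. Zasp52, used at Z-discs and at integrin attachment sites, stood at 209, 223 and 226 CPM in Double, above the 170, 201 and 198 CPM in WT. The log2 fold change of Zasp52 was 0.21 (SE 0.08), which did not pass (edgeR adjusted p = 0.3362). With tmod lower and Zasp52 higher, 2 of the 5 broadly expressed members had an unadjusted p under 0.05. The 5 had a median log2 fold change of -0.02, with 2 above 0 and 3 below.

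The 19 tested muscle-specific members had a median log2 fold change of -1.32, with 17 below 0 and 2, sls and bt, above. Over all tested genes the median was 0.00 and 49.9% were below 0. The count below 0 was between 15 and 17 when each library was left out in turn, and the count of those lower at an unadjusted p under 0.05 was between 8 and 11. With all 6 libraries that second count was 11 of 19, against 6.27% of all tested genes. The share of all tested genes with a library left out is not given here, so the range from 8 to 11 has no background beside it. Higher at an unadjusted p under 0.05 were sls without WT replicate 1 or WT replicate 2 and bt without Double replicate 2, and none of these passed after adjustment (edgeR adjusted p = 0.211, 0.4013 and 0.3853). The spread of the 19 over the 6 libraries was wide, with a median of 2.33 between the lowest and highest log2 CPM of a gene. It was 0.38 for the broadly expressed members and 0.41 for all tested genes. However, 18 of the 19 lay below the median gene in level. The part of low counts and of the group difference in this spread was not tested.

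Read library by library, the tested muscle-specific members had a median below their own means in each Double library and above them in each WT library. The median difference from a gene's own mean was -0.51, -0.81 and -0.29 on the log2 scale in Double replicates 1, 2 and 3, and 0.64, 0.51 and 0.33 in WT replicates 1, 2 and 3. Of the 19 genes 5, 1 and 6 stood above their own mean in the Double libraries, against 15, 17 and 16 in the WT libraries. Double replicate 2 was thus the lowest library. Which WT library was highest varied by gene: WT replicate 1 for Mlc1, Mlc2, Act57B, up and Tm2, and WT replicate 2 for Mp20, TpnC73F, wupA, Mf, Prm and Mlp60A.

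**Figure D4:**
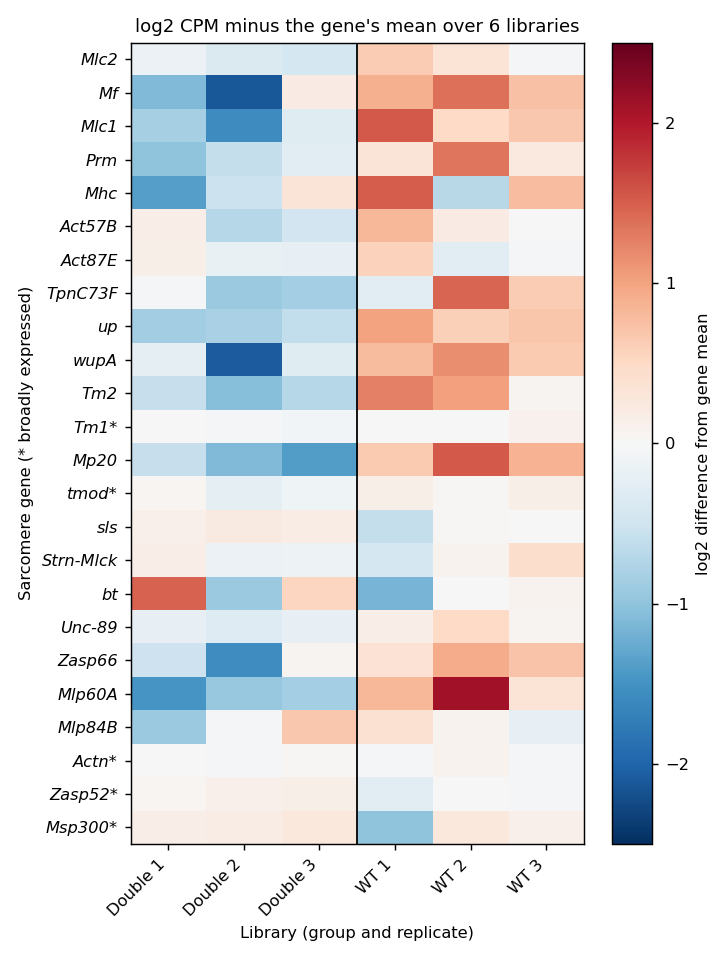
Difference of log2 CPM from each gene's mean over 6 libraries (rows, 24 tested sarcomere genes; columns, the 3 Double and then the 3 WT libraries). Filament, troponin and Z-disc genes of muscle are mostly blue (low) in Double and red (high) in WT. Exceptions are Act87E, sls, bt, Strn-Mlck, Mlp84B and the broadly expressed genes (asterisks). Among the last, tmod leans the same way but only between -0.24 and 0.14.

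The summed level of the 27 muscle-specific members hides this pattern, because sls alone made up 75.1% of it. The sum was 475, 462 and 466 CPM in Double and 357, 485 and 464 CPM in WT, with overlapping groups. Without sls, a sum chosen after the data were seen, it was 108, 70.8 and 88.0 CPM in Double and 136, 144 and 128 CPM in WT. On this sum no Double library reached a WT library, and the Double mean was 0.655 of the WT mean. It amounts to 782 to 1255 counts per Double library and 1268 to 1845 counts per WT library.

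Compared per kb of exon, the muscle-specific genes stood below the counterparts that every cell uses. Act57B, the highest of the muscle-specific members, averaged 7.82 CPM per kb in Double and 12.7 CPM per kb in WT, while Act5C averaged 2118 CPM per kb in Double and 2384 CPM per kb in WT. The muscle light chain gene Mlc2 averaged 3.39 CPM per kb in Double and 5.38 in WT, and sqh, its non-muscle counterpart, 156 CPM per kb in Double and 162 in WT. The broadly expressed members fell in between, from 18.6 CPM per kb for Msp300 to 62.6 for Tm1 in Double and from 15.0 to 66.0 for the same genes in WT. None of 7 cytoskeletal counterparts matched in the table passed edgeR or DESeq2, 1 of them (Act5C, lower) had an unadjusted p under 0.05, and their median log2 fold change was -0.10, with 6 of 7 below 0. Groups without overlap, with Double below WT, were seen for 4 of these 7 counterparts too (Act5C, Act42A, chic and tsr, with log2 fold changes from -0.18 to -0.10), so that this trait was not confined to the sarcomere genes. The 7 summed to 10920 to 11280 CPM in Double, below the 11660 to 12980 CPM in WT.

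**Figure D5:**
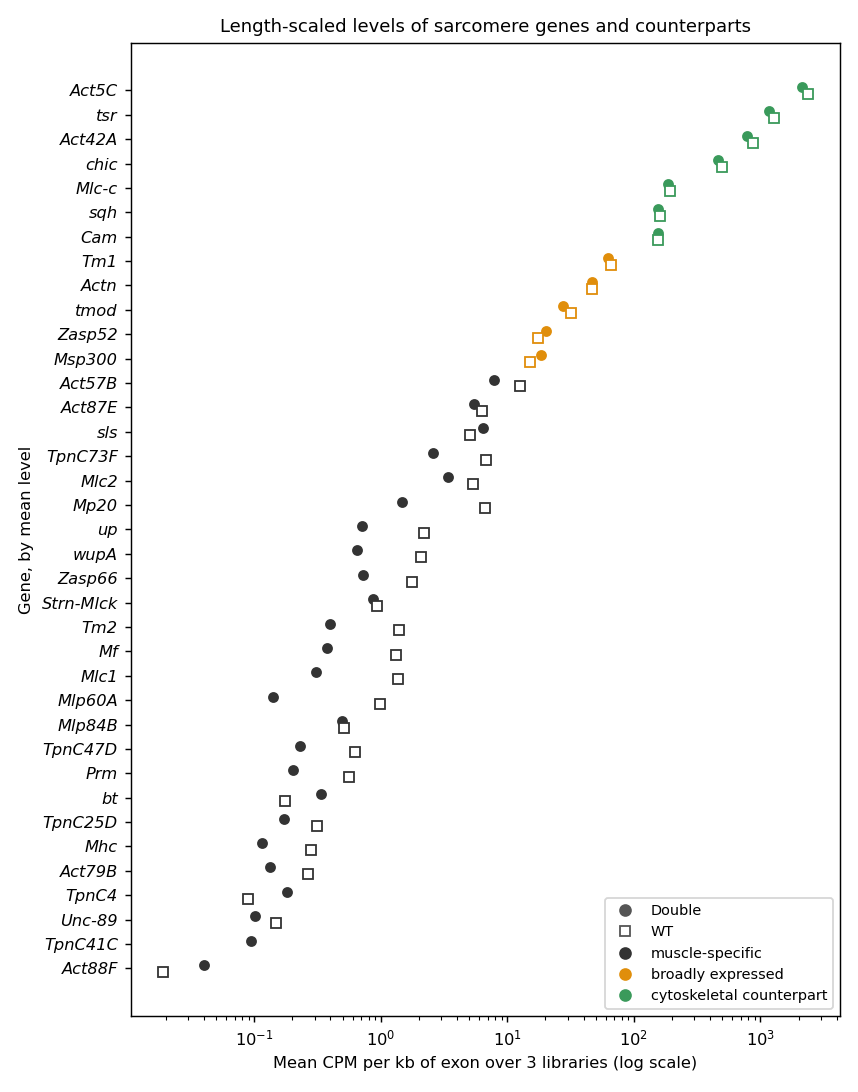
Mean CPM per kb of exon (log axis) of the 30 sarcomere genes with any count and of 7 cytoskeletal counterparts, with Double as filled circles above WT as open squares; a mean of 0 (TpnC41C in WT) is not drawn. Counterparts lie highest, broadly expressed members next, and Act57B leads the muscle-specific genes at 7.82 CPM per kb in Double and 12.7 in WT.

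Lists of other muscle genes had medians near 0. Of 13 genes for calcium handling and the sarcolemma, 8 were tested, 4 lay above and 4 below 0, and their median log2 fold change was -0.10. None passed in edgeR, where 1 had an unadjusted p under 0.05. That gene was Dg, which encodes dystroglycan of muscle and epithelia, at 393 ± 9.96 CPM in Double and 460 ± 27.2 CPM in WT (SD, n = 3 each), and DESeq2 called it lower. SERCA, the calcium pump of the sarcoplasmic reticulum and of all other cells, stood at 485 ± 15.4 CPM in Double and 450 ± 16.2 CPM in WT (SD, n = 3 each), and Argk1, the arginine kinase gene, at 1073 ± 26.9 CPM in Double and 1023 ± 153 CPM in WT. The calcium channel genes RyR and Ca-alpha1D, of muscle and neurons, stood below 5 CPM in every library. The median hides a split by level, since the 4 genes above 0 were SERCA, Stim, Argk1 and Dys, while RyR, Ca-alpha1D and Ca-beta, the 3 tested genes at the lowest levels, all lay below 0. Their log2 fold changes were -1.04 (SE 0.66) for Ca-alpha1D, -0.58 (SE 0.56) for Ca-beta and -0.26 (SE 0.47) for RyR, all with overlapping groups. Of 13 matched genes for muscle assembly and attachment none passed in edgeR, 2 had an unadjusted p under 0.05 with a lower level, and their median was 0.00. One of these was how, an RNA-binding protein gene of muscle and tendon, at 224 ± 11.1 CPM in Double and 253 ± 16.9 CPM in WT (SD, n = 3 each). The other was the small heat shock gene l(2)efl, an alpha-crystallin family gene of muscle, at 1.38, 0.362 and 1.19 CPM in Double and 4.13, 6.56 and 6.70 CPM in WT (log2 fold change -2.55, SE 0.50; edgeR adjusted p = 0.05244), and DESeq2 called it lower.

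Of 15 myogenic regulators, which act before the sarcomere is built, 14 were tested. None passed in edgeR or DESeq2, none had an unadjusted p under 0.05, and their median log2 fold change was 0.01, with 8 above and 6 below 0. Mef2, the transcription factor that activates sarcomere genes, stood at 63.0, 63.3 and 66.7 CPM in Double and 57.2, 63.8 and 60.1 CPM in WT, with overlapping groups (log2 fold change 0.09, SE 0.07). The most abundant of the list were mbc, blow and rst, genes of myoblast fusion, with log2 fold changes of 0.01, 0.02 and -0.04.

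Markers of other tissues that can be carried along with dissected discs were read beside the sarcomere genes. The 7 haemocyte markers summed to 205.4 to 236.9 CPM in Double and 250.2 to 350.3 CPM in WT, 6 of 7 had a log2 fold change below 0 with a median of -0.42, and none was at 0. None passed in edgeR, with 3 at an unadjusted p under 0.05, and DESeq2 called 1 lower. The 3 tracheal markers summed to 239.9 to 262.0 CPM in Double and 270.8 to 309.7 CPM in WT. None passed in edgeR, with 1, Gasp, at an unadjusted p under 0.05, and DESeq2 called Gasp lower. The median over the 3 was 0.01. The 8 neuron markers summed to 121.1 to 218.5 CPM in Double and 130.8 to 329.4 CPM in WT, with overlap, 7 of 8 below 0 and a median log2 fold change of -1.05, and none passed in edgeR or DESeq2 or had an unadjusted p under 0.05. The 2 tendon cell markers, sr and Tsp, summed to 145.4 to 171.3 CPM in Double and 152.0 to 192.9 CPM in WT. The 8 salivary gland markers ranged from 1093 to 3300 CPM in Double and from 17.99 to 3529 CPM in WT, and the 8 fat body markers from 3310 to 13720 CPM in Double and from 198.5 to 6880 CPM in WT. Of the tendon, salivary gland and fat body markers none passed in edgeR, with an unadjusted p under 0.05 for none of the tendon markers, 1 salivary gland marker (higher) and 2 fat body markers (1 higher, 1 lower), and DESeq2 called Sgs1 higher and Fbp2 lower. Their median log2 fold changes were -0.07 for tendon, 0.38 for salivary gland and 1.21 for fat body markers. The part of these tissues in the sarcomere gene differences was not tested.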

How the data were processed

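Poly-A RNA of 6 leg disc libraries, 3 Double and 3 WT, was analysed, grouped by title. The values deposited by the authors are raw counts per gene. The submitters' processing notes name STAR 2.7.0, HTSeq, DESeq2 and dm6 without saying what each was used for, and neither annotation release nor strand setting is stated there. Symbols, positions and exon lengths came from the Ensembl annotation of BDGP6, which shares coordinates with dm6, and 17540 of 17612 identifiers matched. Unc-89 and aret were found under the annotation's names Obsc and bru1. The genes zip and unc-45 were not matched and are not analysed here.

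Double was tested against WT with edgeR 4.0.16 in R 4.3.3 (quasi-likelihood, TMM factors, filterByExpr, robust dispersions, group only) on the whole table. P-values were adjusted by Benjamini-Hochberg over 8802 genes, with a threshold of 0.05. Each SE came from the log2 fold change and its F statistic. CPM use TMM factors, and log2 CPM add a prior count of 2. Replicates differed by more than sampling noise, with 8.99 to 36.3 as chi-square over degrees of freedom. On data of 8802 genes simulated for Double against WT, 61.0% of 2-fold and 88.6% of 4-fold falls were called. These shares are not split by level, and 18 of the 19 tested muscle-specific members lay below the median gene. The median SE of these members was 0.46, against 0.11 for all tested genes, so the shares may not hold for them. Alternatives used RLE factors, library totals, no filter, a filter of 1 CPM in 3 libraries, DESeq2 1.42.0, limma-voom (limma 3.58.1), a replicate block, and each library left out. Figures were drawn with matplotlib 3.10.9.

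The members and lists were chosen with earlier results of these data known. By rule, values per library are given for called members and for the 12 muscle-specific and 3 broadly expressed members with the highest CPM per kb. Other members whose values are given were singled out after their values were seen. No sequence is shown.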

Additional observations from a re-analysis of the deposited data

How the results depend on the processing

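Over 13 alternatives for each of 24 members, 290 of 312 log2 fold changes kept their direction and their side of the threshold. Of the others, 15 lost the call, 2 gained it and 5 reversed. Most members were not called in the main fit, and for these keeping the side means staying uncalled. The 15 lost calls were those of up, called in 5 of its 13 alternatives, and of Mp20, called in 6 of 13. The reversals came with libraries left out, over which the log2 fold change ranged from -0.38 to 0.094 for Act87E, -0.60 to 0.27 for Mlp84B, -0.31 to 0.12 for Strn-Mlck and -0.043 to 0.025 for Actn. They arose without WT replicate 1 for Act87E (0.094) and Mlp84B (0.11), without Double replicate 1 for Mlp84B (0.27), without WT replicate 3 for Strn-Mlck (0.12) and without WT replicate 2 for Actn (0.025). The members called lower, 2 with edgeR, were 4 with DESeq2 and 0 with limma-voom, where the adjusted p was 0.05342 for up and 0.106 for Mp20 and both unadjusted p were under 0.05. They were 0 to 1 with each library left out. With DESeq2 118 genes of the whole table were higher and 175 lower, against 48 and 83 with edgeR, and with libraries left out the counts were 16 to 59 and 30 to 98. No member was called higher under any of these settings. The causes of these changes were not tested, beyond the smaller number of libraries. No label says whether same-numbered libraries were paired. Correlations of same-numbered deviations were -0.07, -0.25 and 0.39, and those of differently numbered ones ran from -0.45 to 0.42, which cannot settle it. With the replicate block 0 members were called, with adjusted p of 0.07998 for up and 0.05438 for Mp20, and 67 genes were higher and 99 lower. The median of the tested muscle-specific members stayed between -1.67 and -0.95. Depth limits the list, since the 8 untested members had 11 counts or fewer in every library.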

Other observations

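Outside the list, the 10 genes whose log2 CPM over the 6 libraries was most alike the mean of the tested muscle-specific members (Pearson correlation, average log2 CPM of at least 1) were slgA, Uxt, CG30187, LKRSDH, Rgk1, yata, fat-spondin, CG45076, CG3502 and Ssu72. Because the groups separate on that mean, no coefficient is given, and lower readings in Double follow from the choice. Rgk1, which encodes a small GTPase of the RGK family, stood at 1.98, 0.633 and 2.19 CPM in Double and 8.92, 9.73 and 9.05 CPM in WT, a log2 fold change of -2.52 (edgeR adjusted p = 0.02642). yata stood at 100.4, 85.5 and 97.7 CPM in Double and 135.5, 135.3 and 126.9 CPM in WT (log2 fold change -0.49; edgeR adjusted p = 0.02096). None of the other 8 passed the test. None of the 10 belongs to the lists of muscle genes used here.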
